A study of Rattus norvegicus with 6 samples.

Results

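A set of 10 mitochondrial genes that code for respiratory chain and ATP synthase subunits were followed across 6 RNA sequencing libraries of rat hippocampal neuron cultures. They are Mt-nd1, Mt-nd2, Mt-nd4, Mt-nd5 and Mt-nd6 of complex I, Mt-cyb of complex III, Mt-co1, Mt-co2 and Mt-co3 of complex IV, and Mt-atp6 of the ATP synthase (complex V). The members were chosen by a fixed list of Ensembl rat gene identifiers paired with these symbols. The rule uses no measured value, but the list was drawn up with earlier results of these data known. All 10 were found among the 31998 genes of the count table, and all 10 passed the filter on low counts that left 13938 genes. The mitochondrial genes Mt-nd3, Mt-nd4l and Mt-atp8 are not on the list and were not analysed here.

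The respiratory chain passes electrons from NADH and succinate to oxygen and pumps protons across the inner mitochondrial membrane, and the ATP synthase uses that gradient to make ATP. Most subunits are encoded in the nucleus, but a core set is encoded by the circular mitochondrial genome. Both strands of that genome are transcribed as long precursors that are cut into single messengers, so these genes share a start of transcription and differ afterwards mainly through processing and decay. Mt-nd6 is the exception among protein-coding genes, since it is read from the strand opposite to all the others, and in human mitochondria its messenger lacks a poly(A) tail. Neurons depend heavily on this pathway because ion pumping and synaptic transmission use much ATP.

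The cultures came from hippocampi of Wistar rat embryos at embryonic day 17. All of them received 10 µM cytosine arabinoside on day 3, which limits dividing non-neuronal cells, and were used after 12 days in vitro. Of the 6 cultures, 3 received vehicle and 3 received 200 µM palmitic acid, a saturated fatty acid, prepared in ethanol and carried on bovine serum albumin. The library titles carry the numbers 1, 4 and 5, each once per treatment. Libraries of the same number are called a specimen here and taken as a pair, although the labels' protocols state no paired model. The labels do not give the number of embryos behind a specimen or the length of exposure. The labels' protocols name a stranded mRNA kit, but the design text of the series speaks of rRNA-depleted RNA and counts 2 cultures for each treatment. Both the labels and the table hold 3 libraries per treatment, and all 6 were used.

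Library totals ran from 15875411 to 18241773 counts. Specimen 4 stood apart from the other specimens: after allowing for treatment, edgeR (quasi-likelihood test, adjusted p under 0.05) placed 1867 genes (13.4%) higher and 2661 genes (19.1%) lower in specimen 4 than in specimen 1. The summed share, the fitted changes and the mix of the transcripts are therefore also given without specimen 4. The table pairs no identifier with a name, so neuronal and glial markers, the nuclear-encoded subunits and the factors that transcribe mitochondrial DNA were not analysed here. Whether the mixture of cell types moved with any value below was not tested, and in bulk RNA fewer cells of a type and less RNA per cell cannot be told apart. Reads of mitochondrial genes can also match near-identical nuclear copies, and no source used here says how such reads were assigned.

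The 10 transcripts together took a large part of every library, and that share differed between specimens as well as between treatments. With vehicle they held 6.20%, 9.63% and 6.61% of all counts in specimens 1, 4 and 5. With palmitic acid they held 5.47%, 7.70% and 6.96%. The share was thus lower with palmitic acid in specimens 1 and 4 and higher in specimen 5, and the groups overlapped. The highest library was the vehicle culture of specimen 4 and the lowest the palmitic acid culture of specimen 1, a 1.76-fold span. Counting error was negligible beside these differences. The exact (Clopper-Pearson) 95% interval of the specimen 4 vehicle share was 9.62% to 9.65%, and such intervals cover counting error only.

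**Figure D1:**
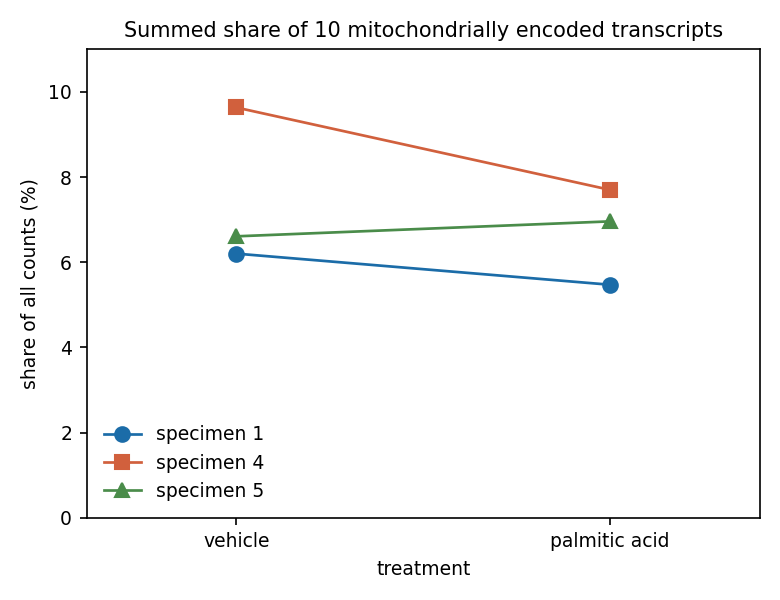
Summed share of the 10 transcripts, as percent of all counts (vertical axis), by treatment (horizontal axis). Each line joins the 2 cultures of a specimen. The palmitic acid culture is below its vehicle partner in specimen 4 (7.70% beside 9.63%) and specimen 1 (5.47% beside 6.20%) and above it in specimen 5 (6.96% beside 6.61%).

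The group means were 7.48% ± 1.87 with vehicle and 6.71% ± 1.13 with palmitic acid (SD, n = 3). The differences within specimens 1, 4 and 5 were -0.73, -1.93 and 0.35 percentage points. As a proportion of the vehicle share they were -11.8%, -20.1% and 5.31%. Their mean of -0.77 percentage points was smaller than their SD of 1.14. Without specimen 4 the mean difference was -0.19 percentage points.

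Complex I accepts electrons from NADH, and its mitochondrially encoded subunits form the membrane arm that pumps protons. Levels are given as counts per 1000000 (CPM) on TMM-scaled library totals, a scaling that reduces the influence of a few very abundant genes. They are not divided by transcript length, so they are compared between libraries and not between genes. Mt-nd1 (ENSRNOG00000030644), a subunit at the joint between the membrane and matrix arms, had 5251, 7358 and 5957 CPM with vehicle in specimens 1, 4 and 5. With palmitic acid it had 5356, 4911 and 5957 CPM. Specimens 1 and 5 were nearly level between treatments, and the specimen 4 culture went from the highest of the 6 values to the lowest. Mt-nd2 (ENSRNOG00000031033), a proton-pumping subunit, had 4515, 9516 and 5677 CPM in vehicle cultures and 4418, 7596 and 5617 CPM in palmitic acid cultures. It was the 1 member lower with palmitic acid in all 3 specimens, a pattern seen at 10.8% of all genes tested, and no member was higher in all 3 (15.7% of genes). In specimens 1 and 5 the difference was 2.15% and 1.07% of the vehicle level.

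Mt-nd4 (ENSRNOG00000029707) and Mt-nd5 (ENSRNOG00000029971), a further pair of proton-pumping subunits, were close to each other in their differences. Mt-nd4 had 4640.0, 6708 and 4669.7 CPM in vehicle cultures and 3994, 4432 and 4851 CPM in palmitic acid cultures. Mt-nd5 had 2886, 3293 and 2234 CPM in vehicle cultures and 2421, 2169.7 and 2402 CPM in palmitic acid cultures. Both were lower in specimens 1 and 4 and slightly higher in specimen 5. In specimen 4 Mt-nd4 was lower by 33.9% and Mt-nd5 by 34.1% of the vehicle level, beside 33.2% for Mt-nd1.

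Mt-nd6 (ENSRNOG00000029042), the complex I subunit encoded on the opposite strand, differed from the other 9 in direction in specimen 4 and in size in specimen 5. It had only 342 to 743 reads in a library, against 39012 or more for every other member. Its level was 22.8, 38.8 and 27.5 CPM in vehicle cultures and 19.5, 41.1 and 39.9 CPM in palmitic acid cultures. It was lower in specimen 1 and higher in specimen 5, like most members, but similar in specimen 4, where the other 9 were lower. Over the 6 libraries its log2 CPM correlated with that of the other 9 members at a median r of 0.75, with a range of -0.01 to 0.86. Among those 9 the median was 0.81, with a range of 0.27 to 0.99. These values describe libraries that share specimens. The ratio of palmitic acid to vehicle in specimen 5 was 1.45, with an exact 95% counting interval of 1.29 to 1.63. The ratio in specimen 4 was 1.06 (0.95 to 1.18), which counting error alone can give, and in specimen 1 it was 0.856 (0.738 to 0.994). These intervals compare single libraries and leave out the spread between cultures. No source used here says whether strand was used in counting, so reads from Mt-nd6 and from transcripts copied off the other strand cannot be told apart.

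Mt-cyb (ENSRNOG00000031766), cytochrome b, is the mitochondrially encoded subunit of complex III, which hands electrons from ubiquinol to cytochrome c. It had 7127, 12815 and 7761 CPM in vehicle cultures and 6665, 9072 and 8153 CPM in palmitic acid cultures. The specimen 4 vehicle culture was far above the other 5 libraries, and its palmitic acid partner was 29.2% lower.

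Complex IV transfers electrons to oxygen, and Mt-co1, Mt-co2 and Mt-co3 encode its catalytic core. Mt-co1 (ENSRNOG00000034234), which holds the oxygen-reducing heme and copper centre, had 18641, 27876 and 18764 CPM with vehicle. With palmitic acid it had 14897, 21652 and 19242 CPM. Its differences in specimens 1 and 4 were alike, at 20.1% and 22.3% below vehicle, and specimen 5 was 2.55% above. Mt-co2 (ENSRNOG00000030371), which takes electrons from cytochrome c, had 5084, 7434 and 5819.7 CPM in vehicle cultures and 4477, 5329.8 and 6441 CPM in palmitic acid cultures. Mt-co3 (ENSRNOG00000030700) had 7339, 12801 and 8256 CPM in vehicle cultures and 6591, 10553 and 8799 CPM in palmitic acid cultures. All 3 were lower in specimens 1 and 4 and higher in specimen 5.

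Mt-atp6 (ENSRNOG00000031979) encodes the subunit of the ATP synthase that carries protons past its rotating ring. It had 6010.0, 11440.3 and 7091 CPM in vehicle cultures and 6127, 9572 and 7970.3 CPM in palmitic acid cultures. Specimen 4 was lower with palmitic acid by 16.3%, whereas specimens 1 and 5 were higher by 1.95% and 12.4%.

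**Figure D2:**
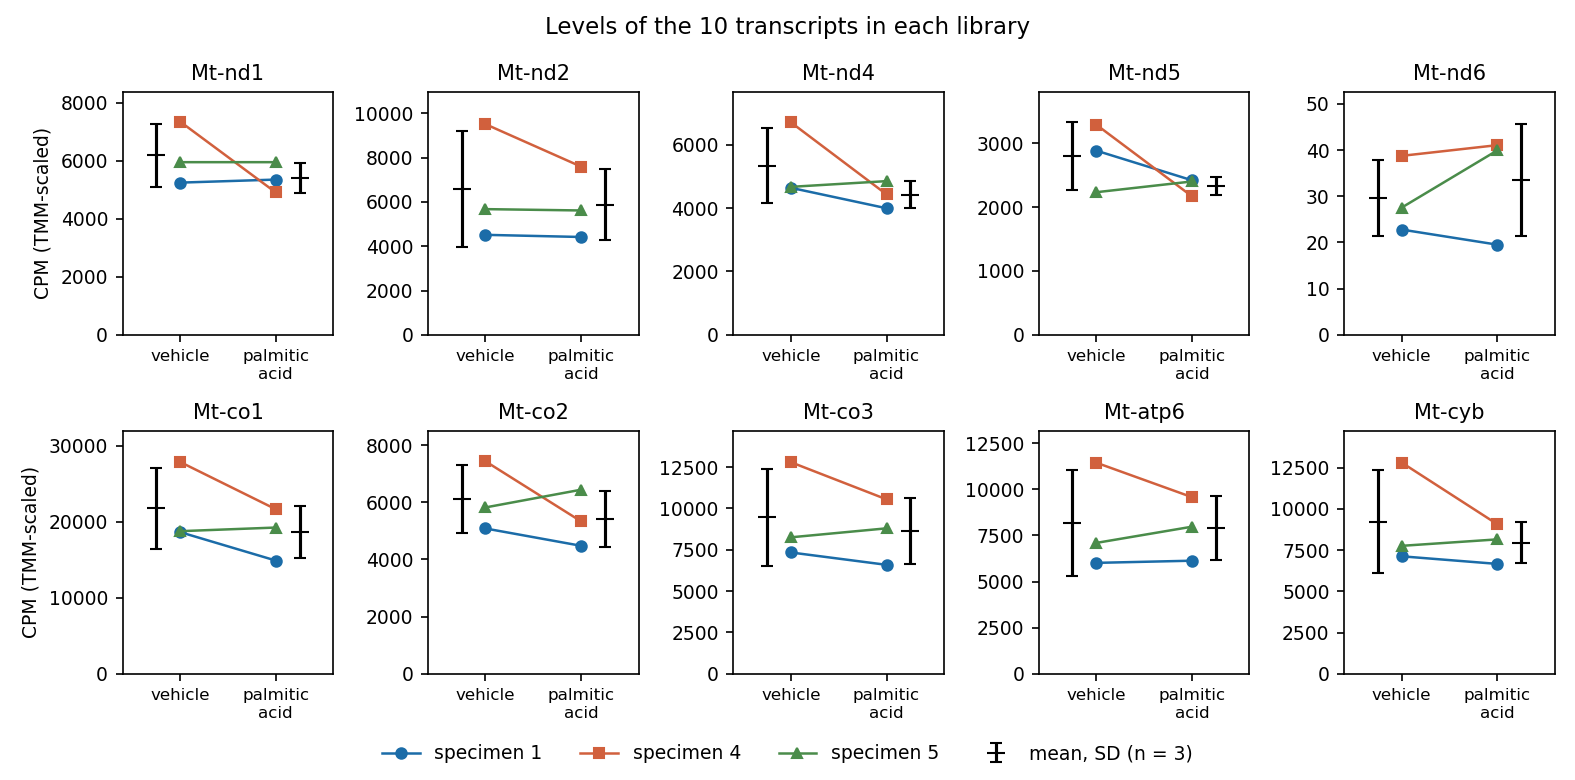
TMM-scaled CPM of each of the 10 transcripts (vertical axes, each from 0) by treatment, with a line joining the 2 cultures of each specimen and black marks for the mean and SD of 3 cultures. The specimen 4 vehicle culture is the highest point for 9 of the 10 transcripts, and the treatments overlap in every panel.

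Across the list, vehicle and palmitic acid libraries overlapped for 10 of 10 members; over all genes tested, 3.32% had groups that did not overlap. The vehicle mean was the higher one for 9 members, the exception being Mt-nd6. For example, Mt-co1 had a mean of 21760.3 ± 5296 CPM in vehicle cultures and 18597 ± 3423 CPM in palmitic acid cultures (SD, n = 3). Mt-nd2 had 6569 ± 2617 and 5877 ± 1605 CPM, and Mt-nd6 had 29.7 ± 8.20 and 33.5 ± 12.1 CPM. The spread between specimens was of the same order as the gap between treatments or larger. The specimen 4 vehicle culture was above every other library for 9 members, again all but Mt-nd6.

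The central comparison asks whether palmitic acid changes these transcripts in neurons. In edgeR's quasi-likelihood test over all genes, 0 of 10 members passed a Benjamini-Hochberg adjusted p of 0.05, and 0 of 13938 genes did (0%). The fitted log2 fold changes of palmitic acid over vehicle ran from -0.27 (Mt-nd4) to 0.17 (Mt-nd6), each with an adjusted p of 1. Their median was -0.18, beside 0.00 for all genes tested. Without adjustment, 40 genes (0.287%) and 0 members had a p under 0.05 in this fit.

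With the specimen as a block, which sets each palmitic acid culture against the vehicle culture of its own specimen, 0 members and 0 genes (0%) passed in edgeR. The member with the smallest p was Mt-nd5, at a log2 fold change of -0.25 ± 0.18 (SE, adjusted p = 0.938, edgeR), followed by Mt-nd4 at -0.25 ± 0.19 with the same adjusted p. Without adjustment, 493 genes (3.54%) and 0 members had a p under 0.05. The block also gave 0 members in limma, which called 0 genes (0%), and in DESeq2, which called 6 genes (0.029%). In an exact permutation test, 3 pairs cannot give a two-sided p under 0.25, and 3 against 3 libraries cannot give one under 0.1. The model's p-values rest instead on an assumed distribution and on spread shared across genes.

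Non-significance here does not show equal levels, and the intervals say how large a difference the data leave possible. Without a specimen term they were wide: the 95% interval of the fold change was 0.486 to 1.65 for Mt-nd2 and 0.620 to 2.05 for Mt-nd6, so a 2-fold change lay inside each of these in 1 direction. With the block they were narrower. For Mt-co1 the 95% interval of the fold change was 0.604 to 1.22. For Mt-nd5 it was 0.618 to 1.14 and for Mt-atp6 0.724 to 1.34. Mt-nd6 had an interval of 0.823 to 1.47. The lower bounds of the other members lay between these 0.604 and 0.724. Without specimen 4, the blocked intervals of the 10 members lay between 0.628 (Mt-co1) and 1.55 (Mt-nd6).

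**Figure D3:**
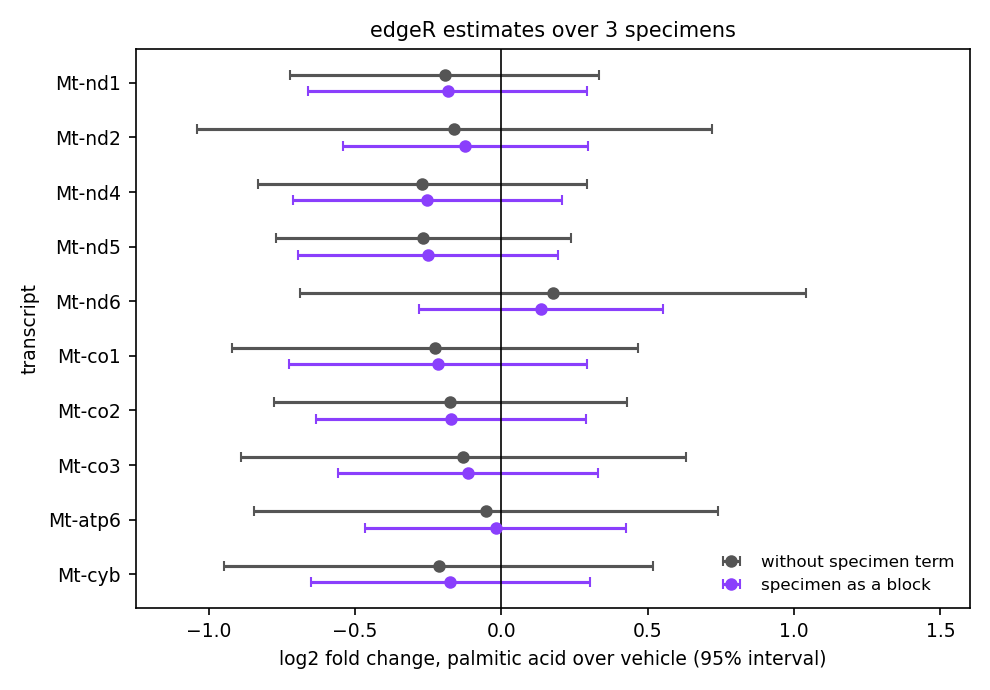
Log2 fold change of palmitic acid over vehicle for each transcript (horizontal axis) with its 95% interval, from edgeR without a specimen term (grey) and with the specimen as a block (purple). Every interval crosses 0, and 9 of the 10 estimates lie below it, the exception being Mt-nd6.

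The direction of some of the 9 lower estimates depended on which libraries entered. Treatment fits with 1 library left out had no specimen term and left its partner unpaired, so their fold changes mix specimen with treatment. Without the vehicle library of specimen 4 such a fit placed 5 members higher and 5 lower, with a median log2 fold change of 0.03. Mt-nd2 was at 0.20 in that fit, although it was lower with palmitic acid within all 3 specimens. Without both libraries of specimen 4 and with the block, 3 were higher and 7 lower, with a median of -0.02, beside 0.02 for all genes; of the 9, Mt-nd1 and Mt-atp6 turned. Without the palmitic acid library of specimen 1, 4 were higher and 6 lower, and Mt-nd2, Mt-co3 and Mt-atp6 turned. Mt-nd4, Mt-nd5 and Mt-co1 stayed below 0 in all 22 alternatives. Leaving out both libraries of specimen 5 with the block placed 10 lower, with a median of -0.31.

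Within each specimen most members differed in 1 direction, but that direction was not shared by the 3 specimens. In specimen 1, 8 of 10 were lower with palmitic acid and 2 higher (42.1% and 57.8% of all genes), with a median log2 ratio of -0.17 beside 0.05 for all genes. In specimen 4, 9 were lower and 1 higher (49% and 50.4% of all genes), with a median of -0.42 beside 0.01. In specimen 5, 8 were higher and 2 lower (50.2% and 49.7% of all genes), with a median of 0.08 beside 0.00. Each such difference compares 1 culture with 1 culture and carries no replicate check. Genes read from the same precursor are also not independent of each other, so 8 or 9 genes that agree are not 8 or 9 observations.

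The size of the difference was uneven among members. In specimen 4 the log2 ratios of the 9 members other than Mt-nd6 ran from -0.60 (Mt-nd5) to -0.26 (Mt-atp6). The range was -0.32 (Mt-co1) to 0.03 (Mt-nd1) in specimen 1 and -0.02 (Mt-nd2) to 0.17 (Mt-atp6) in specimen 5. Mt-nd1 shows how far members departed from a common factor: its log2 ratio was 0.03 in specimen 1, near the top of the list, and -0.58 in specimen 4, near the bottom.

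**Figure D4:**
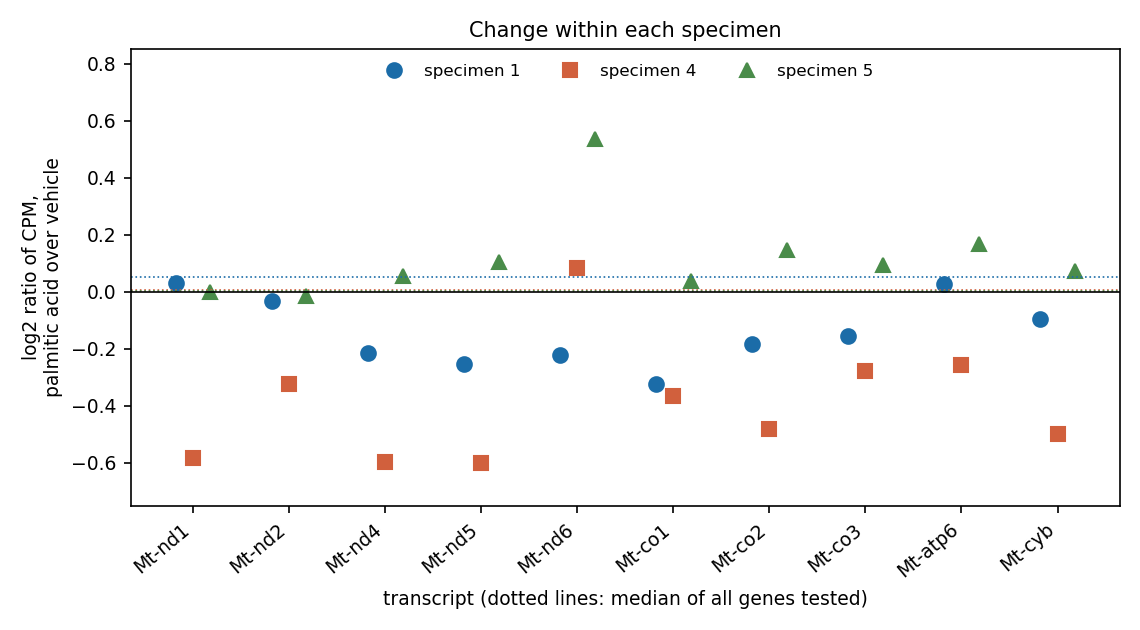
Log2 ratio of CPM, palmitic acid over vehicle, for each transcript (horizontal axis) in each specimen. Specimen 4 (squares) is lowest for 9 of the 10 transcripts, specimen 5 (triangles) lies at or above 0 for most, and its Mt-nd6 value of 0.54 stands above the rest. Dotted lines mark the median of all genes tested in each specimen.

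Between specimens, in the same edgeR fit that allows for treatment, 4 members were called higher in specimen 4 than in specimen 1 (adjusted over all genes), beside 13.4% of all genes. They were Mt-nd2 (1.91-fold, adjusted p = 0.0187), Mt-nd6 (1.88-fold, adjusted p = 0.0199), Mt-atp6 (1.73-fold, adjusted p = 0.0401) and Mt-co3 (1.67-fold, adjusted p = 0.0485). The other 6 had log2 differences from 0.03 (Mt-nd5) to 0.65 (Mt-cyb). The median over the list was 0.61, beside -0.01 for all genes. These calls were fragile: they changed with 1 library left out, but so did the calls over all genes. Without the vehicle library of specimen 5, 2 members were called higher, beside 4103 genes called in either direction. Without the palmitic acid library of specimen 5, 1 member was called higher, beside 3917 such genes. The list's median log2 difference ran from 0.47 (without the vehicle library of specimen 4) to 0.77 (without the palmitic acid library of specimen 4). Each specimen enters with 1 library per treatment, so the test describes these cultures only.

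Specimens 5 and 1 differed at 0 members, with 2.25% of genes called higher and 0.667% lower in specimen 5. The nearest was Mt-nd6, 1.58-fold higher in specimen 5 (adjusted p = 0.154, edgeR). Specimen 5 against specimen 4 also gave 0 members, with 20.7% of genes called higher and 14% lower in specimen 5. All 10 estimates were below 0 there, from -0.59 (Mt-nd2, adjusted p = 0.0751, edgeR) to -0.02 (Mt-nd1). DESeq2 called 3 members lower, beside 1697 of the 15088 genes to which it gave an adjusted p. By the list's median the specimens were thus ordered 4, 5, 1. With all libraries in the fit, edgeR called a member only between the ends of that order, and this changed with 1 library left out.

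The mix of the 10 transcripts was described by each member's percent of their summed counts, which does not depend on library scaling. Mt-atp6 took 9.77%, 11.5% and 10.7% with vehicle in specimens 1, 4 and 5 and 11.1%, 12.7% and 11.5% with palmitic acid. It was higher in every specimen, by 1.38, 1.18 and 0.77 percentage points, although the groups overlapped. Mt-co3 was also higher in all 3 specimens, by 0.06, 1.11 and 0.21 percentage points, and Mt-nd4 was lower in all 3, by -0.28, -0.87 and -0.07. Without specimen 4 the mean differences were 1.07 for Mt-atp6, 0.13 for Mt-co3 and -0.17 for Mt-nd4, beside 1.11, 0.46 and -0.41 over all 3 specimens. The remaining 7 members changed sign between specimens. Mt-atp6 was singled out after its values were seen, and percentages of a fixed sum cannot vary independently, so no test was made.

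Summed by complex, complex V, here Mt-atp6 alone, ranged from 9.77% to 12.7% between libraries, the widest span in proportion among the complexes. Opposite movements of members can cancel in the sums for complexes I and IV, so this ranking does not extend to single members. Taken singly, Mt-nd5, Mt-nd6, Mt-nd1, Mt-nd2 and Mt-co2 each varied more in proportion than Mt-atp6. Mt-nd5 varied most, from 2.88% to 4.69%. Complex III, here Mt-cyb alone, took 11.6%, 12.9% and 11.7% with vehicle in specimens 1, 4 and 5 and 12.1%, 12.0% and 11.7% with palmitic acid. Complex IV took 50.5%, 48.5% and 49.6% of the members' counts with vehicle and 47.2%, 49.8% and 49.6% with palmitic acid. Complex I took 28.1%, 27.1% and 28.0% with vehicle and 29.5%, 25.4% and 27.2% with palmitic acid. The highest value was 1.07 times the lowest for complex IV and 1.16 times for complex I. Over all 3 specimens the mean difference was -0.61 percentage points for complex IV and -0.40 for complex I, and without specimen 4 it was -1.59 and 0.24. The complex IV difference in specimen 1 was mostly that of Mt-co1, which went from 30.3% to 27.1% there.

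**Figure D5:**
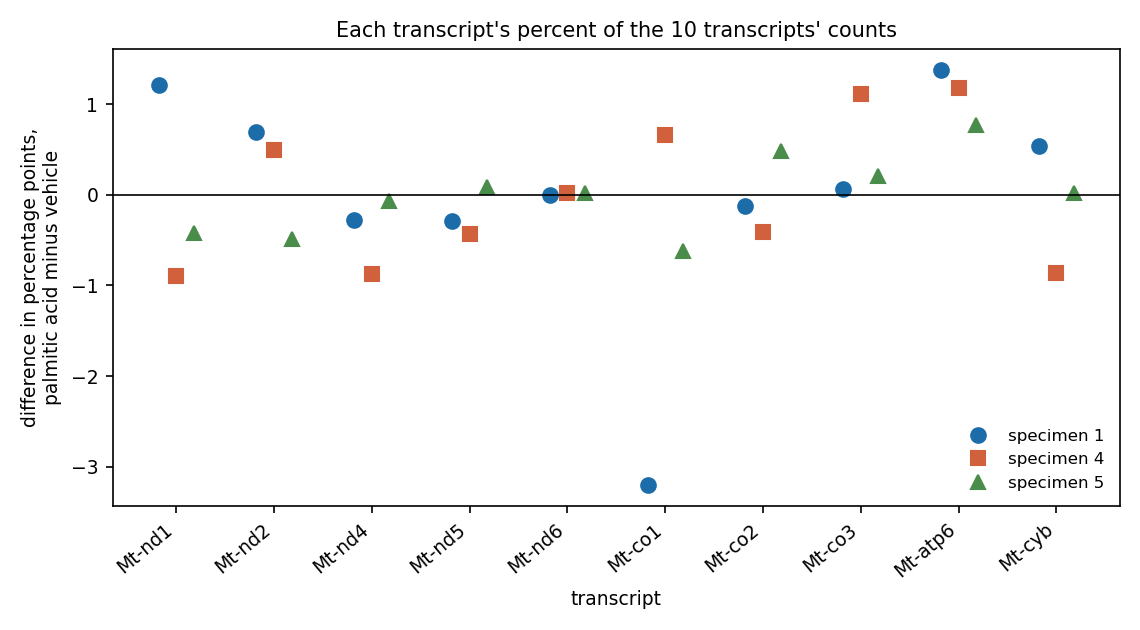
Difference, palmitic acid minus vehicle, in each transcript's percent of the 10 transcripts' counts (vertical axis, percentage points) in each specimen. Mt-atp6 is above 0 in all 3 specimens, at 1.38, 1.18 and 0.77, and the lowest point is Mt-co1 in specimen 1 at -3.20.

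Set against the reads of the other 9 members, Mt-nd6 reads were higher with palmitic acid in specimens 4 and 5. Whether strand was used in counting is not known, so this is a ratio of reads and may not be one between strands. With vehicle there were 0.371, 0.391 and 0.416 Mt-nd6 reads per 1000 reads of the other 9 members in specimens 1, 4 and 5. With palmitic acid there were 0.355, 0.546 and 0.575. The ratio was 39.7% and 38.4% higher with palmitic acid in specimens 4 and 5 and differed by -4.16% in specimen 1. The vehicle mean was 0.392 ± 0.023 and the palmitic acid mean 0.492 ± 0.119 (SD, n = 3), with overlapping groups. Without specimen 4 the means were 0.393 and 0.465. Against Mt-nd5 alone, the vehicle cultures were less alike, at 7.90, 11.8 and 12.3 Mt-nd6 reads per 1000 reads of Mt-nd5, beside 8.06, 18.9 and 16.6 with palmitic acid. In specimen 4 the numerator hardly differed and the sum of the other 9 was lower, whereas in specimen 5 the level of Mt-nd6 reads was higher.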

How the data were processed

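The authors deposited raw read counts per Ensembl gene for 6 libraries, made from 500 ng RNA with paired reads of 125 bases, per the labels' protocols. The submitters' processing notes name featureCounts, edgeR, DESeq2, Salmon 0.14.1, STAR 2.7.1a and Trimmomatic 0.39 without saying what each did. No source used here gives the counting tool, strand setting, build or annotation. The reference table (GRCr8, 47357 genes) matched 0 identifiers and holds 0 of the members' symbols. Gene names other than the members', lengths and sequences were therefore not used, and the lists of nuclear subunits, mitochondrial gene expression and cell type markers could not be tested.

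Counts were tested in R 4.3.3 with edgeR 4.0.16 (quasi-likelihood, TMM, filterByExpr with minimum count 10, treatment only, all genes, Benjamini-Hochberg). The SE is the log2 fold change divided by the square root of F, and 95% intervals use the fit's degrees of freedom. Alternatives were DESeq2 1.42.0, limma 3.58.1, other scalings and filters, the specimen as a block, and libraries left out. The libraries were paired by the number in their titles. After removal of group means the 2 libraries of specimens 1, 4 and 5 correlated at 0.771, 0.89 and 0.855 over genes. Fits were tested on counts simulated from these libraries' means and dispersions with known fold changes added to some genes. The means were set by specimen and the dispersions came from the blocked design. That edgeR called changes with the block that it did not call without it was therefore built into the simulation. P-values of the treatment-only fit set the difference against the spread between these cultures. With the block they set it against the spread left after specimen differences are removed. All members are named, and the 2 other genes of closest pattern. The members and lists were chosen with earlier results of these data known.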

Additional observations from a re-analysis of the deposited data

How the results depend on the processing

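No member was called under any of the 22 alternatives to the treatment fit, and the members' smallest adjusted p in them was 0.909. The unpaired fits count the differences between specimens as error, so their zeros say nothing of stability. Over all genes, 0 higher and 0 lower became 2 and 4 with the replicate block in DESeq2, and stayed 0 and 0 with it in edgeR and limma. With libraries or specimens left out they ranged from 0 to 4 higher and 0 to 4 lower. Scaling without the 10 members, DESeq2 size factors and other filters turned no member's direction. Treatment fits with 1 library left out had no specimen term and left its partner unpaired, so they mix specimen with treatment. Log2 fold changes turned in sign only where libraries were left out. Without the vehicle library of specimen 4 they were 0.20 for Mt-nd2, 0.14 for Mt-co3, 0.26 for Mt-atp6 and 0.087 for Mt-cyb. Without the palmitic acid library of specimen 1 they were 0.0051 for Mt-nd2, 0.029 for Mt-co3 and 0.098 for Mt-atp6, and without that of specimen 4 Mt-nd6 was -0.031. Without both libraries of specimen 4, Mt-nd1 was 0.014 (0.015 with the block), Mt-co2 0.0022 and Mt-atp6 0.11 (0.099 with the block). Without both of specimen 5, Mt-nd6 was -0.039 (-0.092 with the block). At the other end, with 1 library left out, Mt-nd2 reached -0.42, Mt-nd6 0.45, Mt-co3 -0.33, Mt-atp6 -0.25 and Mt-cyb -0.37. Mt-nd4, Mt-nd5 and Mt-co1 kept their direction in all 22. The summed share's difference ran from -1.33 to -0.19 percentage points with a specimen left out, -0.91 without the 100 genes of most reads, and -0.77 to -0.49 with a member left out. For specimen 4 against 1, the members called higher changed with 1 library left out (chosen after seeing the data), as did the calls over all genes. DESeq2 called 6 members higher there, beside 1858 of its 15088 genes with an adjusted p. For specimen 5 against 4, DESeq2 called 3 members lower, beside 1697 of its 15088 genes with an adjusted p. In edgeR the members called there changed only without the palmitic acid library of specimen 4. The cause of these changes was not tested. Counting error weighs most on Mt-nd6, with 342 to 743 reads.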

Other observations

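Over the 6 libraries, 49 of 13928 other genes had log2 CPM that correlated above 0.95 with the mean log2 CPM of the 10 transcripts. The closest were ENSRNOG00000042062 (r = 0.992), at a low level of 2.2 to 4.0 CPM, and ENSRNOG00000004730 (r = 0.991). ENSRNOG00000004730 had 195, 393 and 217 CPM with vehicle in specimens 1, 4 and 5 and 183, 280.2 and 254 with palmitic acid. The libraries are paired by specimen, and 6 points searched over many genes yield high correlations readily, so these values are a description and carry no p.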
